A study of Sus scrofa with 35 samples.

Results

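The subject is the set of nuclear genes that encode the mitochondrial respiratory chain and ATP synthase in pig cells and embryos. A gene was a member where its symbol began NDUFA, NDUFB, NDUFC, NDUFS or NDUFV followed by a digit, was SDHA, SDHB, SDHC or SDHD, or began UQCR, COX4 to COX8 or ATP5. The rule used symbols only and no measured value. It found 68 members among the 14673 genes listed in at least 1 of 4 deposited expression tables. They comprise 36 subunits of complex I, 4 of complex II, 2 of complex III, 8 of complex IV and 15 of complex V, plus 3 genes that the symbol rule takes in although they are not structural subunits. NDUFA4 carries a complex I name but is known as a component of complex IV and was placed there. Most other subunits, among them most of complex III, are not analysed here, and the tables use older symbols such as ATP5A1 and ATP5E.

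The respiratory chain passes electrons from NADH (complex I) and succinate (complex II) through complex III to oxygen at complex IV, and pumps protons as it does so. Complex V, the ATP synthase, lets the protons flow back through a rotating ring of c subunits and makes ATP in its F1 head. Complexes I, III, IV and V are mosaics: the mitochondrial genome encodes a few central subunits and the nucleus all the others, so their assembly needs products of both genomes, while complex II is wholly nuclear. Cleavage embryos carry mitochondria and much of their mRNA over from the oocyte, and pluripotent stem cells rely strongly on glycolysis beside respiration.

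The study profiled porcine expanded potential stem cells (pEPSCs), stem cells from early embryos that are cultured to keep a broad developmental potential, and 4-cell embryos. The 18 RNA libraries analysed form 6 groups of 3: pEPSCs overexpressing OTX2, a homeobox transcription factor, OTX2 knockout pEPSCs, pEPSCs overexpressing LEUTX, a homeobox factor of embryonic genome activation, and wild-type pEPSCs, then 4-cell embryos overexpressing OTX2 and wild-type 4-cell embryos. A further 17 samples, of which 4 are ATAC-seq, 9 ChIP-seq and 4 single-cell samples, are not analysed here. Each embryo library came from 10 pooled embryos without their zona pellucida, amplified by a modified Smart-seq2 protocol. Strain, sex, culture passage, the way in which OTX2 or LEUTX was driven and the edit made in the knockout are not given in the sources used here, and the name of the knockout columns may stand for 1 cell line. Nothing in the labels says that replicate libraries came from separate cultures or embryo collections, so the p-values measure only the spread between these libraries. In such bulk libraries, fewer cells of a kind and less RNA per cell cannot be told apart.

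Values are TPM, a transcript level that accounts for transcript length and library total, rescaled so that the nuclear genes of each library sum to 1000000. The depth behind them is unknown, since TPM keeps none. OTX2 stood at 10758, 9932 and 12068 rescaled TPM in the OTX2-overexpressing pEPSCs and at 128, 145 and 128 in the knockout, against 307, 299 and 305 in wild type. LEUTX stood at 3783, 3799 and 3670 in its overexpressing line and was listed at 0 in wild type, and that line held OTX2 at 0.156, 0.351 and 0.249. In embryos OTX2 reached 17075, 18579 and 22023 rescaled TPM under overexpression, against 738, 662 and 761 in wild type. LEUTX stood in the same embryos at 167, 27.5 and 25.9, against 782, 1261 and 1494 in wild type, and its part in the results below was not tested. Transcripts of the mitochondrial genome took 9.02% to 10.1% of all TPM in the OTX2-overexpressing pEPSCs, 15.9% to 16.1% in the LEUTX line, 14.5% to 15.7% in wild type, 51.4% to 51.9% in embryos overexpressing OTX2 and 55.7% to 57.7% in wild-type embryos. Knockout library 1 stood apart at 22.4%, against 10.2% and 10.3% in the other two, whose columns are numbered 3 and 4, and the knockout is therefore given with and without it. The 7 pluripotency markers checked (POU5F1, SOX2, NANOG, SALL4, LIN28A, DNMT3B and TDGF1) were all listed in the pEPSC tables and summed to 2669 to 2975 rescaled TPM in the OTX2-overexpressing line, 4690 to 7409 in the knockout, 3675 to 3769 in the LEUTX line and 6203 to 6649 in wild type. Of 7 fibroblast markers, COL1A1, COL1A2 and THY1 were listed, summing to 35.6 to 39.0 in the OTX2-overexpressing line, 28.8 to 48.8 in the knockout, 3.90 to 6.05 in the LEUTX line and 10.6 to 13.8 in wild type, and their part in the results below was not tested. The 7 oocyte and cleavage markers were all listed in embryos. Each call below is a limma test across all genes of a table with an adjusted p under 0.05, and each fold change, also written as a log2 difference, is on the scale of log2(rescaled TPM + 1), which understates the change of low genes.

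The members took 2.51% of the nuclear TPM in the OTX2-overexpressing pEPSCs, 2.53% in the knockout, 2.33% in the LEUTX line and 2.19% in wild type. The median member stood at 220.3 rescaled TPM in wild-type pEPSCs, against 18.9 for all nuclear genes. In wild-type embryos the 60 listed members took 1.66%. Complex V dominated the pEPSC total: it made up 44.6% of the members' TPM in wild-type pEPSCs but 18.5% in wild-type embryos, where complex I held 37.8% and complex IV 33.8%. The embryo and pEPSC tables were normalized separately and prepared with different library protocols, so these levels are set side by side without a test.

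The order of the genes also differed. In wild-type pEPSCs the highest member was ATP5A1, the alpha subunit of the F1 head, at a mean of 1867 rescaled TPM, and 58 of 68 members stood at 100 or more. In wild-type embryos the highest was NDUFA1, a small X-linked subunit needed for complex I assembly, with 2485, 2363 and 2467 rescaled TPM, against 72.8, 75.0 and 70.6 in wild-type pEPSCs. The lowest in embryos was NDUFS1, the largest core subunit of complex I and a carrier of iron-sulfur clusters, with 1.41, 2.61 and 3.45, against 190.4, 185 and 182 in wild-type pEPSCs. ATP5B, the catalytic beta subunit, had 31.3, 54.5 and 46.8 rescaled TPM in wild-type embryos and 1746, 1799 and 1692 in wild-type pEPSCs. SDHB, the iron-sulfur subunit of complex II, went the other way, with 1125, 797 and 864 in wild-type embryos and 365, 383 and 344 in wild-type pEPSCs. The 32 complex I subunits listed in embryos spanned a 980-fold range of mean level in wild-type embryos. Its low end, NDUFS1, lay before rescaling close to the mean TPM of 1 below which genes had been removed. The 36 listed in pEPSCs spanned a 9.75-fold range in wild-type pEPSCs. Across the 60 genes listed in both tables, the Spearman correlation of wild-type embryo and wild-type pEPSC mean levels was 0.28. OTX2-overexpressing and wild-type embryos correlated at 0.93 over the same 60 genes. Each engineered pEPSC line correlated with wild-type pEPSCs at 0.83 to 0.94, over 67 or 68 genes. These correlations are across genes, which are not independent replicates, and describe libraries that share a preparation within each system. The scatter of embryo against pEPSC level shows how far single genes lie from equal abundance.

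Replicate spread set what could be seen in each system. The median coefficient of variation of a member was 3.88% in the OTX2-overexpressing pEPSCs, 10.8% in the knockout, 3.16% in the LEUTX line and 4.46% in wild type, but 19.9% in OTX2-overexpressing and 19.6% in wild-type embryos. A change that passes the test in pEPSCs can therefore be too small to pass in embryos.

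Summed over all members, the level was 25295, 24564 and 25414 rescaled TPM in the OTX2-overexpressing pEPSCs and 28256, 24188 and 23449 in the knockout. The LEUTX line summed to 23191, 22932 and 23798, and wild type to 21902, 22552 and 21142. All of these libraries lay above all 3 wild-type libraries, with a ratio of mean sums of 1.15 for OTX2 overexpression, 1.16 for the knockout and 1.07 for LEUTX. The LEUTX ratio became 0.978 when libraries were scaled by the median ratio of their nuclear genes, so its direction depends on the scaling. The knockout ratio was 1.09 without knockout library 1. In embryos the 60 members summed to 10823, 11921 and 11955 rescaled TPM under OTX2 overexpression, against 16930, 16606 and 16320 in wild type, a ratio of 0.696. The plot of summed levels shows which complexes carried these sums.

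**Figure D1:**
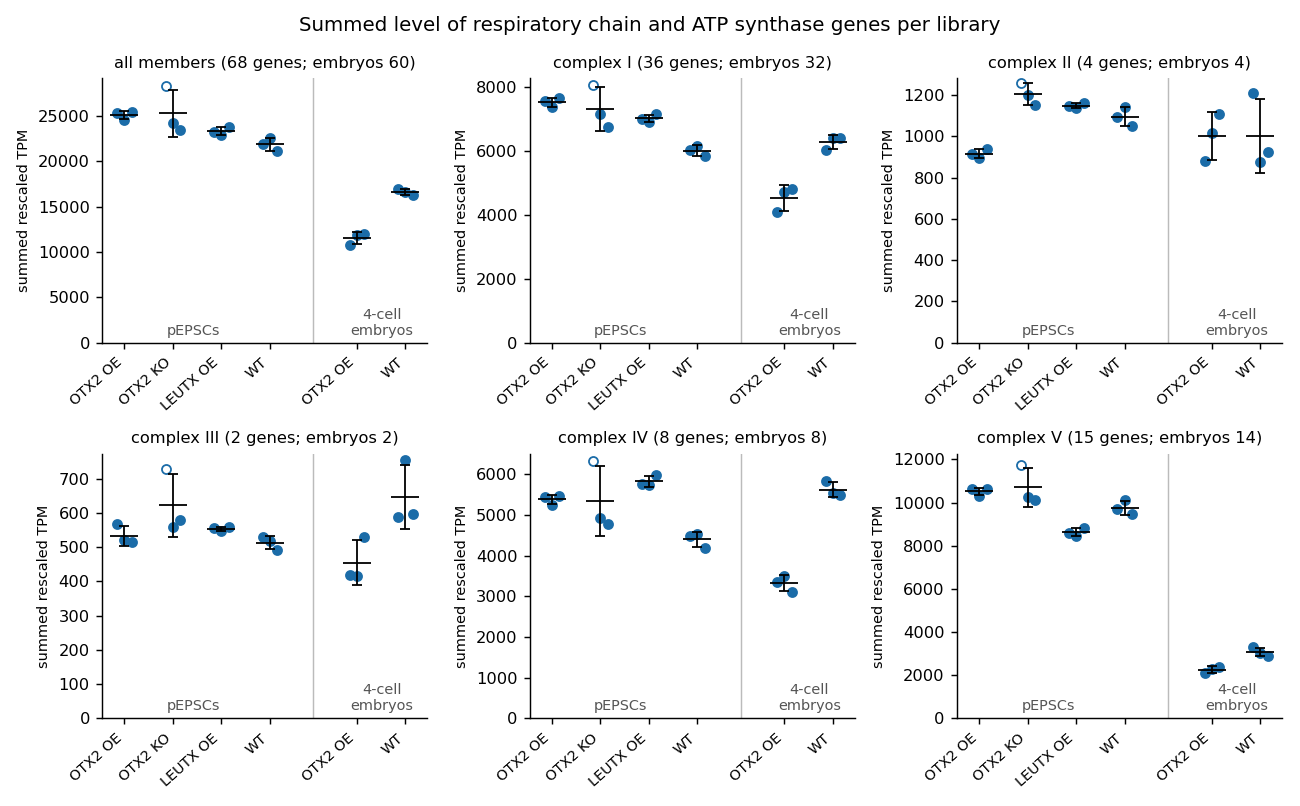
Summed rescaled TPM of all members and of complexes I to V in each library, with bars for the mean ± SD of 3 libraries and an open circle for knockout library 1. The embryo OTX2-overexpression libraries lie below the wild-type embryos in complexes I, III, IV and V and overlap them in complex II.

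OTX2 overexpression in pEPSCs was accompanied by higher levels of most accessory subunits of complexes I and IV and lower levels of the membrane anchors of complex II. Of the 68 members, 40 rose and 20 fell (58.8% and 29.4%), while 8 did not pass. Over all 13252 genes tested, 45.4% rose and 36.8% fell, so calls were common throughout the transcriptome. The median log2 fold change was 0.25 over the members and 0.12 over all genes. Under median-ratio scaling, which moved the all-gene median to 0.03, 33 members rose and 21 fell, against 42.2% and 40.6% of all genes at that scaling.

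The complex I subunits were counted by class, and the difference between the classes was not tested. The 29 supernumerary subunits, which surround the catalytic core, counted 19 that rose and 6 that fell, with a median of 0.41, and their sum was 1.35 times that of wild type. The 7 core subunits counted 3 that rose and 4 that fell, with a median of −0.23.

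NDUFB9, a supernumerary subunit of the membrane arm, changed with the smallest adjusted p. It had 598, 577 and 594 rescaled TPM in OTX2-overexpressing cells, against 173, 185 and 163 in wild type, a log2 difference of 1.76 (SE 0.0515, adjusted p = 8.13e-10). RefSeq places the gene (ID 100154130) on chromosome 4 of Sscrofa11.1, the build of the submitters' processing notes, at 15105305 to 15113281. The groups lay far apart, with the lowest OTX2 library above 3 times the highest wild-type one.

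NDUFA1 had 179, 179 and 186 rescaled TPM in OTX2-overexpressing cells and 72.8, 75.0 and 70.6 in wild type, a log2 difference of 1.30 (SE 0.0501, adjusted p = 4.51e-09). It lies on chromosome X at 98219717 to 98223873. All 3 overexpressing libraries were thus above all wild-type ones, at more than 2-fold.

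Among those that fell, NDUFS1 had 109, 109.8 and 116 rescaled TPM in OTX2-overexpressing cells, against 190.4, 185 and 182 in wild type (log2 difference −0.73, SE 0.0493, adjusted p = 2.25e-07). NDUFV2, an iron-sulfur subunit beside the NADH-oxidizing flavin, had 160.4, 160.4 and 175 in OTX2-overexpressing cells, against 285, 284 and 256 in wild type (log2 difference −0.73, SE 0.0576, adjusted p = 6.85e-07). Both groups were tight, and they did not overlap for either gene. NDUFB6, a membrane-arm subunit, fell by 0.71 on the log2 scale (SE 0.0553, adjusted p = 6.47e-07). NDUFC1, a small supernumerary subunit, had the largest fall of any member, with 91.6, 93.6 and 85.7 rescaled TPM in OTX2-overexpressing cells against 159, 189 and 158 in wild type (log2 difference −0.89, SE 0.0747, adjusted p = 1.14e-06).

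Complex II fell mainly at its anchor. Of its 4 subunits 3 fell and none rose (0 at an unadjusted limma p under 0.05). SDHC, one of the 2 membrane anchors, had 135, 127 and 129 rescaled TPM in OTX2-overexpressing cells, against 216, 213 and 202 in wild type (log2 difference −0.68, SE 0.0497, adjusted p = 3.77e-07). SDHD, the other anchor, had 173, 164 and 178 in OTX2-overexpressing cells, against 272, 295 and 253 in wild type (log2 difference −0.66, SE 0.0606, adjusted p = 2.18e-06). The anchors together summed to 0.625 of wild type with no overlap. SDHA, the flavoprotein that oxidizes succinate, fell by 0.11 (SE 0.0435, adjusted p = 0.0339), a call lost without OTX2 library 2 or 3 or wild-type library 2 or 3, with values of −0.11 to −0.09. In the authors' deposited table SDHA passed as lower (−0.276, adjusted p = 8.65e-06). SDHB did not pass, with 372, 372 and 407 in OTX2-overexpressing cells and 365, 383 and 344 in wild type. SDHC lies on chromosome 4 at 89135410 to 89169164 and SDHD on chromosome 9 at 39790654 to 39803602. In complex III, UQCR10, a small subunit, rose (log2 difference 0.42, SE 0.0702, adjusted p = 0.000246), whereas UQCRB, which contacts the quinone-binding region, fell (−0.33, SE 0.0520, adjusted p = 0.000159).

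In complex IV 7 of 8 subunits rose, with a median of 0.50 and a sum 1.22 times that of wild type. Of these, 5 passed as higher in the authors' deposited table, and COX6A1 (−0.005757, adjusted p = 0.943) and COX6C (−0.05232, adjusted p = 0.547) did not pass and had the other sign. COX7A1, the isoform typical of heart and muscle, had 32.1, 33.0 and 30.8 rescaled TPM in OTX2-overexpressing cells, against 11.8, 10.7 and 13.1 in wild type (log2 difference 1.36, SE 0.0896, adjusted p = 1.81e-07). COX7A2, the isoform of most tissues, had 578, 553 and 577 in OTX2-overexpressing cells, against 369, 388 and 343 in wild type (log2 difference 0.64, SE 0.0497, adjusted p = 6.52e-07). Both isoforms thus rose, and COX7A1 stayed far below COX7A2 in level. COX6B rose by a log2 fold change of 0.57 (adjusted p = 7.49e-07), NDUFA4 by 0.49 (adjusted p = 1.48e-06) and COX6A1 by 0.19 (adjusted p = 0.00143). The fall was in COX7C, another small subunit, with 526, 575 and 524 in OTX2-overexpressing cells, against 795, 814 and 754 in wild type (log2 difference −0.54, SE 0.0481, adjusted p = 1.83e-06). Of 7 heart and muscle markers checked, 2 were listed in this table, TNNI3 and TNNT2, and they summed to 46.6 to 49.3 rescaled TPM in OTX2-overexpressing cells and 17.5 to 21.5 in wild type, where TNNT2 was listed at 0. The knockout table listed TNNI3 alone, at 13.0 to 14.7 in knockout cells, and the LEUTX table TNNI3 and ACTN2, which summed to 77.6 to 93.5 in LEUTX cells. MYH6, MYH7, CKM and MB were listed in no table, and the part of these markers in the COX7A1 values was not tested.

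Within complex V, 7 subunits rose and 5 fell, with a median of 0.06, and the sum was 1.08 times that of wild type, or 1.005 under median-ratio scaling. In the authors' deposited table ATP5G1, ATP5I and ATP5J did not pass and ATP5G2 and ATP5L passed as lower, so there falls outnumbered rises. ATP5E, the epsilon subunit of the central stalk, had 724, 715 and 704 rescaled TPM in OTX2-overexpressing cells, against 308, 298 and 261 in wild type (log2 difference 1.31, SE 0.0583, adjusted p = 1.16e-08). ATP5A1 fell, with 1405, 1376 and 1388 in OTX2-overexpressing cells against 1838, 1921 and 1841 in wild type (log2 difference −0.43, SE 0.0325, adjusted p = 5.45e-07), and ATP5B fell by 0.24 (SE 0.0334, adjusted p = 5.21e-05). The summed level of the F1 head overlapped wild type, at a ratio of 0.970.

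Of the membrane sector, ATP5J2, the f subunit, rose by 0.82 on the log2 scale (SE 0.0402, adjusted p = 2.11e-08). ATP5O, the OSCP subunit that joins the peripheral stalk to the F1 head, fell by 0.38 (SE 0.0371, adjusted p = 3.51e-06). The 3 c-ring genes encode the same mature protein with different import sequences. ATP5G3 had 1719, 1695 and 1829 rescaled TPM in OTX2-overexpressing cells, against 1097, 1180.4 and 1133 in wild type (log2 difference 0.62, SE 0.0414, adjusted p = 2.03e-07). ATP5G1 rose by 0.24 (SE 0.0492, adjusted p = 0.000996), and ATP5G2 did not pass, with 595, 501 and 515 in OTX2-overexpressing cells and 502, 563 and 486 in wild type. In the authors' deposited table ATP5G1 did not pass (0.06634, adjusted p = 0.435) and ATP5G2 passed as lower (−0.2135, adjusted p = 0.00332). These genes are paralogs, and reads shared between them could be split by the authors' counting.

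The 3 genes outside the complexes all rose. NDUFA4L2, a paralog of NDUFA4 known as a hypoxia-induced gene, had 8.64, 8.83 and 7.49 rescaled TPM in OTX2-overexpressing cells, against 1.15, 0.478 and 0.942 in wild type (log2 difference 2.34, SE 0.152, adjusted p = 1.62e-07). It was listed in this table alone and passed the filter on low values through the group where it is high, so its call was bound to be a rise. ATP5SL, which in human cells acts in complex I assembly, and ATP5S also rose, and both were chosen for mention after their values were seen.

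**Figure D2:**
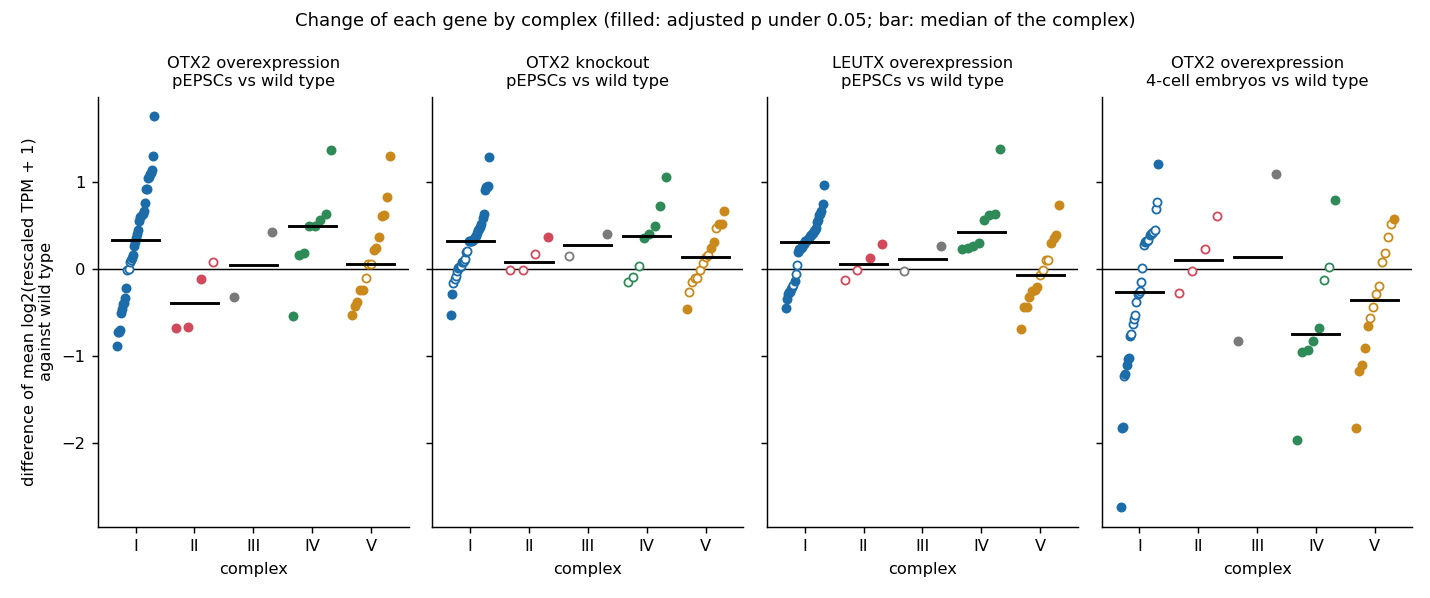
Log2 fold change of each subunit in the 4 comparisons with wild type, by complex, where filled points have an adjusted p under 0.05 and bars mark the median of the complex. In OTX2-overexpressing pEPSCs the complex II median of −0.39 lies below 0 and the complex IV median of 0.50 above it, while in embryos the complex IV median is −0.75.

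The knockout of OTX2 moved the members mainly upward, and it did so in 3 libraries of which 1 stood apart. Of 67 listed members, 28 rose, 3 fell and 36 did not pass, which is 41.8% and 4.48%, against 17.6% and 27.9% of all 12258 genes tested. The median was 0.21 over the members and −0.12 over all genes. Under median-ratio scaling, which moved the all-gene median to −0.00, 28 members rose and none fell (24.3% and 23.6% of all genes). Without knockout library 1, 33 rose and 12 fell, against 28.1% and 36.3% of all genes, so the number of falls depends on that library. Without any 1 wild-type library, 18 rose and 0 fell. Of all genes, 11.7% to 13.7% then rose and 17.3% to 19.3% fell. Library 1 was above both other knockout libraries in 49 of the 67 members (73.1%) and below both in 8, whereas over all nuclear genes it was above both in 26.2% and below both in 60.3%. Its mitochondrially encoded protein transcripts summed to 203335 TPM, against 92245 and 93417 in the other two knockout libraries and 146766, 144877 and 135202 in wild type. The part of library 1's composition in these results was not tested beyond leaving it out.

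In complex I 16 subunits rose and 2 fell, or 20 and 5 without library 1. NDUFB8, a membrane-arm subunit, had 449, 464 and 422 rescaled TPM in knockout cells, against 232, 242 and 218 in wild type (log2 difference 0.95, SE 0.0779, adjusted p = 0.000241). NDUFA2, a small subunit with a thioredoxin-like fold, had 124, 138 and 117 in knockout cells, against 64.6, 67.6 and 63.1 in wild type (log2 difference 0.94, SE 0.0938, adjusted p = 0.000475). For both genes all 3 knockout libraries lay above wild type and close together. The values without library 1 were 0.94 and 0.96.

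NDUFS6, a zinc-binding subunit added late in assembly, had 241, 296 and 264 rescaled TPM in knockout cells, against 129.8, 134 and 147 in wild type (log2 difference 0.95, SE 0.102, adjusted p = 0.000642). NDUFB11, an X-linked membrane-arm subunit, had 104, 69.3 and 72.2 in knockout cells, against 30.8, 38.0 and 28.5 in wild type (log2 difference 1.29, SE 0.183, adjusted p = 0.00166). This was the largest rise of any member in the knockout, and it was 1.11 without library 1. NDUFC2, a membrane-arm subunit, fell, with 245, 191 and 169 in knockout cells against 285, 293 and 287 in wild type (log2 difference −0.53, SE 0.135, adjusted p = 0.0164). NDUFB10 fell by 0.28 (SE 0.0864, adjusted p = 0.031). The NDUFC2 call was lost without knockout library 3 or any 1 wild-type library (−0.54 to −0.50), and that of NDUFB10 without knockout library 4 or any 1 wild-type library (−0.30 to −0.22).

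In complex II, SDHA rose, with 275, 368 and 329 rescaled TPM in knockout cells against 242, 250.5 and 252 in wild type (log2 difference 0.37, SE 0.112, adjusted p = 0.0309). SDHB, SDHC and SDHD did not pass, with log2 fold changes of −0.01, −0.01 and 0.17, but without knockout library 1 SDHB passed as lower (−0.16, limma adjusted p = 0.0329). The SDHA call was lost without knockout library 3 or 4 or any 1 wild-type library (0.28 to 0.38). In complex III UQCR10 rose by 0.40 (SE 0.0946, adjusted p = 0.0126), which did not pass without wild-type library 2 or 3 (0.39 and 0.33).

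In complex IV 5 subunits rose and none fell (0 at an unadjusted limma p under 0.05). Without knockout library 1, 5 rose and 2 fell, namely COX6C (−0.27, limma adjusted p = 0.00527) and COX7C (−0.33, limma adjusted p = 0.00799). COX7A1 had 28.5, 26.0 and 23.1 rescaled TPM in knockout cells, against 11.8, 10.7 and 13.1 in wild type (log2 difference 1.06, SE 0.133, adjusted p = 0.00105). COX7A2 had 694, 594 and 545 in knockout cells, against 369, 388 and 343 in wild type (log2 difference 0.73, SE 0.105, adjusted p = 0.00176). Neither gene overlapped wild type. COX6A1 rose by 0.40 (adjusted p = 0.00877) and NDUFA4 by 0.49 (adjusted p = 0.0489), and COX6B did not pass (0.03, adjusted p = 0.797). The NDUFA4 rise rested in part on library 1, which had 1039 rescaled TPM against 660.4 and 676 in the other two; it was 0.28 without that library and was lost without any 1 wild-type library (0.46 to 0.51). RefSeq also lists an NDUFA4 pseudogene, so its value is uncertain.

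The c ring rose at 2 of its 3 genes. ATP5G1 had 749, 696 and 669 rescaled TPM in knockout cells, against 419, 467 and 441 in wild type (log2 difference 0.67, SE 0.0785, adjusted p = 0.000851), and ATP5G3 rose by 0.51 (SE 0.0625, adjusted p = 0.000949). ATP5G2 did not pass, with 535, 389 and 382 in knockout cells and 502, 563 and 486 in wild type, but it passed as lower (−0.42) without library 1. The c-ring sum was 1.32 times that of wild type, or 1.27 without library 1. ATP5O fell, with 927, 613 and 618 in knockout cells against 967, 1004 and 952 in wild type (log2 difference −0.46, SE 0.158, adjusted p = 0.0473), and by 0.66 without library 1. Its call was lost without knockout library 3 or 4 or any 1 wild-type library (−0.48 to −0.36).

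With LEUTX overexpression, most accessory subunits of complex I and all 8 listed subunits of complex IV rose, and the main subunits of the catalytic head of ATP synthase fell. Of 67 members, 42 rose, 15 fell and 10 did not pass (62.7% and 22.4%), against 42.8% and 27.5% of 12547 genes tested. The median was 0.26 over the members and 0.12 over all genes. Under median-ratio scaling, which moved the all-gene median to 0.01, 28 members rose and 21 fell (35.5% and 35.7% of all genes). This comparison and the 2 before it share the same 3 wild-type libraries, so their values are given side by side and not as repeats of each other.

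In complex I 23 supernumerary subunits rose and 3 fell, with a median of 0.36, while 2 core subunits rose and 5 fell, with a median of −0.27. NDUFA6, a LYR-motif protein that holds the acyl carrier protein, had 226, 225 and 247 rescaled TPM in LEUTX cells, against 115, 123 and 119 in wild type (log2 difference 0.96, SE 0.0476, adjusted p = 2.35e-07). It lies on chromosome 5 at 6562074 to 6567321. NDUFA13, also known as GRIM-19, had 251, 260.3 and 268 in LEUTX cells, against 155, 168 and 169 in wild type (log2 difference 0.66, SE 0.0443, adjusted p = 1.51e-06). NDUFB4, a membrane-arm subunit, rose by 0.75 (SE 0.0530, adjusted p = 2.19e-06).

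Among the core subunits NDUFS1 had 135, 135 and 136 rescaled TPM in LEUTX cells, against 190.5, 185 and 182 in wild type (log2 difference −0.45, SE 0.0357, adjusted p = 4.28e-06). NDUFS3, on the quinone side of the peripheral arm, fell by 0.29 (SE 0.0357, adjusted p = 7.61e-05). The core sum was 0.887 of wild type and the supernumerary sum 1.26 times it, and neither overlapped. The plot of complex I genes sets the 2 classes of subunit side by side.

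**Figure D3:**
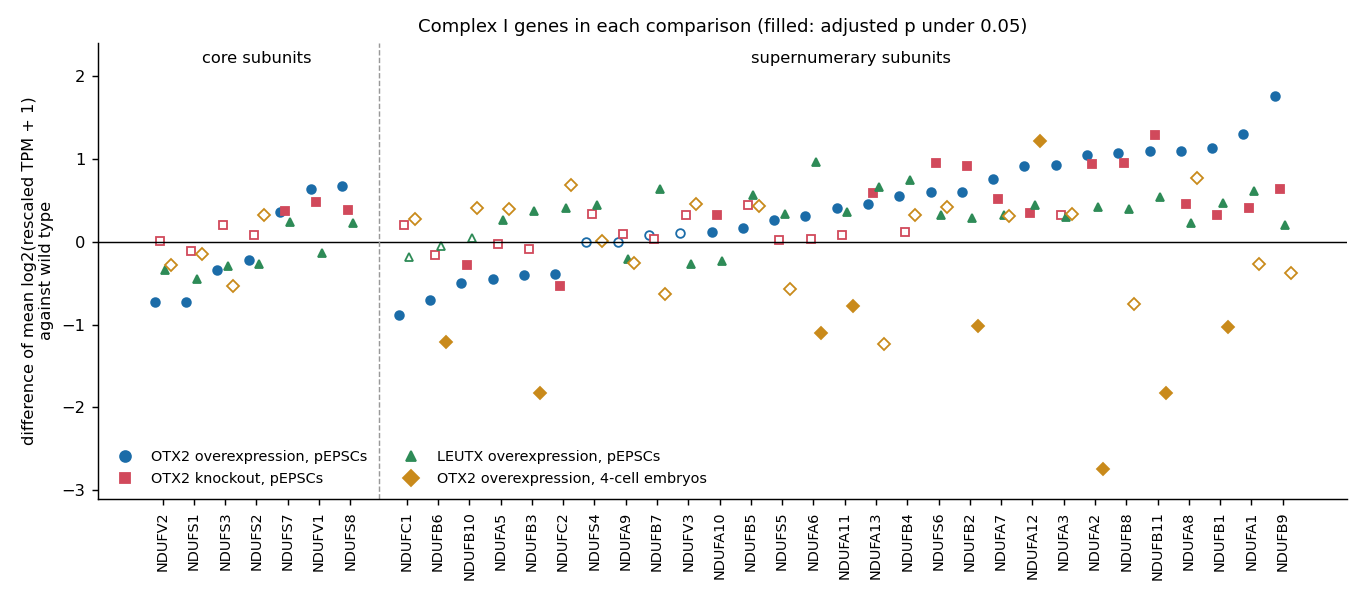
Log2 fold change of the 36 complex I genes, 7 core subunits on the left and 29 supernumerary subunits on the right, in the 4 comparisons with wild type. NDUFS1 lies at −0.73 in OTX2-overexpressing and −0.45 in LEUTX-overexpressing pEPSCs, and NDUFA2 at −2.74 in OTX2-overexpressing embryos.

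Complex II changed less under LEUTX. SDHC had 262, 247 and 260.2 rescaled TPM in LEUTX cells, against 216, 213 and 202 in wild type (log2 difference 0.29, SE 0.0406, adjusted p = 0.000198), and SDHB rose by 0.12 (SE 0.0414, adjusted p = 0.0228), a call lost without LEUTX library 1 or 3 or wild-type library 1 or 3 (0.09 to 0.13). SDHA and SDHD did not pass (−0.02 and −0.12). In the authors' deposited table both passed as lower, SDHA at −0.1241 (adjusted p = 0.0317) and SDHD at −0.2955 (adjusted p = 0.00054). There SDHC passed as higher (0.151, adjusted p = 0.046) and SDHB did not pass (−0.01946, adjusted p = 0.822). UQCR10 rose by 0.26 by limma (SE 0.0633, adjusted p = 0.00487) but did not pass in the authors' deposited table (0.1039, adjusted p = 0.335).

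All 8 listed complex IV subunits rose, with a median of 0.43 and a sum 1.32 times that of wild type, or 1.215 under median-ratio scaling. Of the 8 subunits, 5 passed in the authors' deposited table, and COX6A1 (0.09974, adjusted p = 0.164), COX6B (0.09231, adjusted p = 0.200) and COX7A2 (0.161, adjusted p = 0.0639) did not. COX7A1 had 33.8, 30.8 and 32.2 rescaled TPM in LEUTX cells, against 11.8, 10.7 and 13.1 in wild type (log2 difference 1.38, SE 0.0857, adjusted p = 9.77e-07). NDUFA4 had 848, 824 and 862 in LEUTX cells, against 564, 558 and 526 in wild type (log2 difference 0.62, SE 0.0359, adjusted p = 6.45e-07). The groups were well apart for both genes. COX7A2 rose by 0.30, COX6A1 by 0.26 and COX6B by 0.24 (adjusted p = 0.000355, 0.000115 and 0.000164).

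Complex V had 4 subunits that rose and 7 that fell, and its sum was 0.885 of wild type. ATP5A1 had 1167, 1129.8 and 1179.8 rescaled TPM in LEUTX cells, against 1839, 1922 and 1841 in wild type (log2 difference −0.69, SE 0.0302, adjusted p = 1.18e-07). ATP5B had 1399, 1391 and 1403 in LEUTX cells, against 1746, 1799 and 1693 in wild type (log2 difference −0.32, SE 0.0291, adjusted p = 1.1e-05). ATP5C1, the gamma subunit that forms the rotating shaft, had 302, 302 and 302 in LEUTX cells, against 403, 452 and 377 in wild type (log2 difference −0.44, SE 0.0581, adjusted p = 0.000126). These 3 abundant subunits of the F1 head thus all fell, and the head summed to 0.785 of wild type. ATP5E rose, with 466, 477 and 496 in LEUTX cells against 308, 298 and 261 in wild type (log2 difference 0.73, SE 0.0586, adjusted p = 4.87e-06), as did ATP5J2 (0.39, SE 0.0327, adjusted p = 6.1e-06). In the c ring ATP5G3 fell by 0.44 (SE 0.0402, adjusted p = 1.2e-05) and ATP5G2 by 0.25 (SE 0.0577, adjusted p = 0.00404), while ATP5G1 did not pass (0.11, adjusted p = 0.0625).

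The lines were also tested directly against each other over the 11954 genes tested in all 3 pEPSC tables, whose wild-type values are identical. Between OTX2 overexpression and knockout, 22 members were higher and 24 lower in the overexpressing line (32.8% and 35.8%), against 39.8% and 28.7% of all genes. After quantile normalization 24 members were higher and 18 lower, against 33.4% and 39.2% of all genes, and on TPM as deposited 27 were higher and 20 lower, against 40.8% and 24.2%. The median difference was −0.00 over the members and 0.12 over all genes. Without knockout library 1 it was 0.07 over the members and 0.04 over all genes. Then 30 members were higher and 24 lower, against 40.3% and 35.0% of all genes. NDUFB9 was higher under overexpression by 1.13 (SE 0.0929, adjusted p = 4.1e-07) and ATP5E by 1.00 (SE 0.0688, adjusted p = 8.02e-08). The difference was −1.09 for NDUFC1 (SE 0.14, adjusted p = 2.09e-05), −0.82 for SDHD (SE 0.0645, adjusted p = 2.53e-07) and −0.67 for SDHC (SE 0.069, adjusted p = 2.85e-06). Both complex II anchors were thus lower in the overexpressing line than in the knockout.

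Between LEUTX and OTX2 overexpression, 21 members were higher and 27 lower in the LEUTX line (31.3% and 40.3%), against 40.0% and 31.2% of all genes. SDHC was higher by 0.97 (SE 0.069, adjusted p = 1e-07). The difference was −1.56 for NDUFB9 (SE 0.0929, adjusted p = 2.36e-08), −1.06 for ATP5G3 (SE 0.051, adjusted p = 3.77e-09) and −1.05 for ATP5C1 (SE 0.0711, adjusted p = 6.57e-08). COX7A1 differed by 0.01 with an SE of 0.0999 (adjusted p = 0.923). Between LEUTX overexpression and OTX2 knockout, 20 members were higher and 27 lower in the LEUTX line (29.9% and 40.3%), against 46.2% and 22.2% of all genes. After quantile normalization 21 members were higher and 25 lower, against 33.5% and 33.4% of all genes. Without knockout library 1, 30 members were higher and 25 lower, against 47.4% and 28.1% of all genes, and the members' median difference was 0.02, against −0.11 with that library. NDUFA6 and NDUFC2 were each higher by 0.94 in the LEUTX line, and ATP5G3 differed by −0.94.

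In embryos overexpressing OTX2, members of complexes I, IV and V fell and few rose. Of 60 listed members, 4 rose, 19 fell and 37 did not pass (6.67% and 31.7%), against 7.63% and 8.59% of 8603 genes tested. The median was −0.28 over the members and 0.16 over all genes. Median-ratio scaling, which moved the all-gene median to 0.02, gave 2 that rose and 24 that fell (3.36% and 9.87% of all genes), and the TPM as deposited gave 7 and 18 (21.5% and 8.04%). Of the 4 rises, 1 was left without overexpressing library 2 or 3 and 2 without wild-type library 2 or 3. The sum of the 7 oocyte and cleavage markers was 17262 to 17401 rescaled TPM in the overexpressing embryos and 12128 to 14273 in wild type, and its part in these changes was not tested. The 7 cumulus-cell markers checked, which would show carried-over follicle cells, had no entry in the embryo table.

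In complex I 8 of 32 listed subunits fell and 1 rose, and none of the 4 core subunits listed passed. NDUFA2 had 28.8, 19.0 and 31.2 rescaled TPM in OTX2-overexpressing embryos, against 151, 184 and 205 in wild type (log2 difference −2.74, SE 0.207, adjusted p = 0.000284). This was the largest fall of any member, with no overlap, and the gene lies on chromosome 2 at 142359000 to 142361126. NDUFB6 had 156, 160.1 and 165 in OTX2-overexpressing embryos, against 333, 438 and 356 in wild type (log2 difference −1.21, SE 0.132, adjusted p = 0.00125). NDUFA12, a subunit near the quinone site, rose, with 20.6, 13.8 and 18.0 in OTX2-overexpressing embryos against 3.94, 11.4 and 6.93 in wild type (log2 difference 1.21, SE 0.328, adjusted p = 0.0411), a call lost without any 1 overexpressing library or wild-type library 1 or 3 (0.88 to 1.36). In the authors' deposited table NDUFA12 did not pass (0.2049, adjusted p = 0.777), whereas NDUFA8 passed as higher (1.05, adjusted p = 0.000107). NDUFA1, the most abundant member, did not pass by limma (−0.27, adjusted p = 0.123). It had 1899, 2237 and 1926 in OTX2-overexpressing embryos and 2485, 2363 and 2467 in wild type, groups that do not overlap. In the authors' deposited table NDUFA1 (−0.3988, adjusted p = 0.0112) and the core subunit NDUFS3 (−0.4618, adjusted p = 0.0473) passed as lower.

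No subunit of complex II passed in embryos (limma; 1 was higher at an unadjusted p under 0.05), and its sum overlapped wild type at a ratio of 1.00. SDHB had 786, 936 and 1004 rescaled TPM in OTX2-overexpressing embryos and 1125, 797 and 864 in wild type. SDHD had 59.3, 55.8 and 62.6 in OTX2-overexpressing embryos and 43.6, 50.4 and 25.7 in wild type (0.61, adjusted p = 0.112), groups that do not overlap. SDHA and SDHC had log2 fold changes of −0.28 and 0.23 with adjusted p = 0.365 and 0.61. In complex III UQCRB rose, with 119, 119.9 and 138 in OTX2-overexpressing embryos against 43.8, 65.7 and 68.2 in wild type (log2 difference 1.10, SE 0.185, adjusted p = 0.00713), and UQCR10 fell by 0.83 (SE 0.16, adjusted p = 0.0123), which did not pass without overexpressing library 2 (−0.76) or wild-type library 2 (−0.71).

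Complex IV fell most, with 5 of 8 subunits lower, 1 higher, a median of −0.75 and a sum 0.591 of wild type. COX7A2 had 109.7, 101 and 125 rescaled TPM in OTX2-overexpressing embryos, against 403, 433 and 485 in wild type (log2 difference −1.97, SE 0.131, adjusted p = 0.00018). COX7A1 moved the other way, with 21.9, 30.1 and 25.1 in OTX2-overexpressing embryos against 12.5, 14.1 and 16.2 in wild type (log2 difference 0.80, SE 0.176, adjusted p = 0.0199). The broad isoform thus remained the higher of the pair, by a smaller margin than in wild type. COX5B, which binds zinc, had 409.8, 325 and 398 in OTX2-overexpressing embryos, against 662, 720.2 and 822 in wild type (log2 difference −0.96, SE 0.139, adjusted p = 0.00364). COX6A1 fell by 0.82 (adjusted p = 0.0219) and NDUFA4 by 0.68 (adjusted p = 0.0123), and COX6B did not pass (0.03). The COX7A1 call was lost without overexpressing library 2 or 3 or wild-type library 2 (0.68 to 0.81), and that of COX6A1 without overexpressing or wild-type library 2 or 3 (−0.83 to −0.71). In the authors' deposited table COX7A1 did not pass (0.8534, adjusted p = 0.0739) and COX6A1 passed as lower.

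In complex V 5 of 14 listed subunits fell and 1 rose. ATP5E had 121, 122 and 116 rescaled TPM in OTX2-overexpressing embryos, against 272, 246 and 262 in wild type (log2 difference −1.11, SE 0.108, adjusted p = 0.000846). ATP5J2 had 170.5, 193 and 202 in OTX2-overexpressing embryos, against 443, 481 and 363 in wild type (log2 difference −1.18, SE 0.141, adjusted p = 0.00172). ATP5H, the d subunit of the peripheral stalk, had 11.7, 10.4 and 12.3 in OTX2-overexpressing embryos, against 29.7, 40.0 and 68.1 in wild type (log2 difference −1.83, SE 0.277, adjusted p = 0.00457). In each of these genes the groups were well separated. ATP5F1, the b subunit of the same stalk, rose by 0.57 (SE 0.163, adjusted p = 0.0486), a call lost without any 1 overexpressing library or wild-type library 2 or 3 (0.48 to 0.68). The 3 c-ring genes did not pass, and ATP5G3 had 521, 705 and 684 in OTX2-overexpressing embryos and 799, 667 and 717 in wild type.

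The effect of OTX2 overexpression was then compared between embryos and pEPSCs by an interaction test over 7442 genes, with each effect measured within its own table after rescaling to the 7478 genes listed in both, so a difference need not equal the 2 effects above subtracted. The embryo effect was lower than the pEPSC effect for 30 of 60 members and higher for 7 (50% and 11.7%), against 23.2% and 36.8% of all genes. The median difference was −0.58 over the members and 0.23 over all genes. In 18 members both effects passed in opposite directions and the difference itself passed. Of these, ATP5I, ATP5J, COX6A1, COX6C, NDUFA6 and UQCR10 did not pass in pEPSCs in the authors' deposited table.

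NDUFA2 differed most: it fell by 2.74 in embryos and rose by 1.04 in pEPSCs (adjusted p = 7.79e-08), a difference of −3.91 (SE 0.232, adjusted p = 1.42e-07). NDUFB11 differed by −3.05 (SE 0.452, adjusted p = 0.00011), COX7A2 by −2.72 (SE 0.139, adjusted p = 6e-08) and ATP5E by −2.53 (SE 0.123, adjusted p = 5.24e-08). UQCRB went the other way, with a rise in embryos, a fall in pEPSCs and a difference of 1.32. COX7A1 rose in both systems by limma, with a difference of −0.67, but its embryo rise did not pass in the authors' deposited table. The plot of embryo against pEPSC effect places these genes in opposite corners.

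**Figure D4:**
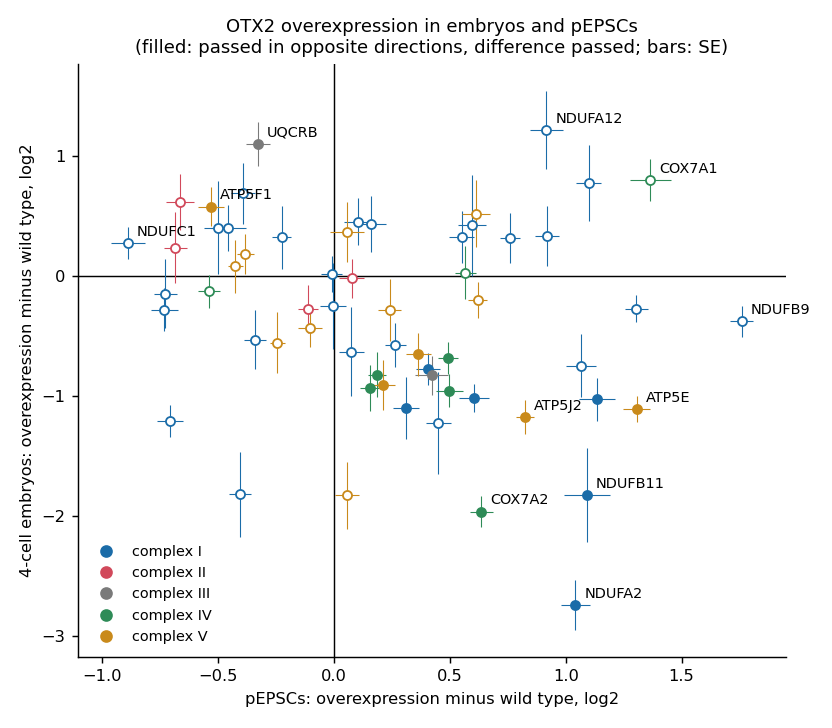
Log2 fold change under OTX2 overexpression in 4-cell embryos (vertical) against pEPSCs (horizontal) for 60 members, with bars of 1 SE and filled points for the 18 described in the text. NDUFA2, COX7A2, ATP5E and NDUFB11 lie at the lower right and UQCRB at the upper left.

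The mitochondrially encoded partners were measured in the same libraries, on the TPM scale before rescaling. Their 13 protein transcripts summed to 81728, 84650 and 91157 TPM in OTX2-overexpressing pEPSCs, against 146766, 144877 and 135202 in wild type, while the nuclear members' sum was above wild type. Those of complexes I, IV and V were each lower. CYTB, of complex III, was higher, with 6690, 6593 and 6547 TPM against 5543, 5715 and 5447 in wild type. In the LEUTX line they summed to 148129, 147603 and 149395 TPM. In embryos the 13 transcripts summed to 414156, 438505 and 440204 TPM under OTX2 overexpression, against 463463, 467781 and 467666 in wild type. There the sums of complexes IV and V lay below wild type, and those of complexes I and III overlapped it. A relation between the 2 sets of transcripts was not tested.

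Other genes of the pathway are given as context, from lists chosen with earlier results of these data known, and the genes named are among the 3 of their list with the smallest adjusted p in that comparison. The counts in OTX2-overexpressing pEPSCs stand against 45.4% of all genes tested that rose and 36.8% that fell. Of 4 subunits or carriers outside the symbol rule, 1 rose and 2 fell in OTX2-overexpressing pEPSCs. CYCS, the cytochrome c that carries electrons to complex IV, had 246.5, 233.5 and 239.7 rescaled TPM in these cells, against 560.9, 593.0 and 530.1 in wild type (log2 difference −1.22, SE 0.0490, adjusted p = 5.67e-09). Of 29 assembly factors 10 rose and 11 fell. Among them SDHAF1, which helps assemble complex II, rose by 1.17 and NDUFAF2, a complex I assembly factor, fell by 1.18. Of 11 regulators of mitochondrial genes none rose and 7 fell, with MYC at −1.51 and HIF1A at −1.07. Of 13 tricarboxylic acid cycle enzymes 5 rose and 7 fell, with SUCLA2 at −1.27. SLC25A4, the heart-type carrier that exchanges ADP for ATP, had 218.6, 226.0 and 229.8 in OTX2-overexpressing cells, against 42.2, 44.0 and 35.3 in wild type (log2 difference 2.45, SE 0.0783, adjusted p = 1.46e-09). Of 14 import genes 3 rose and 9 fell, with TOMM20, an import receptor, at −1.33.

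In the knockout, where 17.6% of all genes rose and 27.9% fell, 7 of 29 assembly factors rose and 2 fell, SLC25A4 rose by 1.01, the import gene TOMM7 rose by 1.22 and HIF1A fell by 0.84. In the LEUTX line, where 42.8% of all genes rose and 27.5% fell, 10 of 29 assembly factors rose and 7 fell. Among them SDHAF3 rose by 1.11. Of 13 tricarboxylic acid cycle enzymes 3 rose and 8 fell in that line, and SUCLA2 was among the rises, at 1.07. Of 14 import genes 2 rose and 10 fell. In embryos, where 7.63% of all genes rose and 8.59% fell, 1 of 17 assembly factors rose and 2 fell, with PET100, an assembly factor of complex IV, at −2.13. Of 9 regulators none rose and 4 fell there. NRF1, a transcription factor of respiratory genes, had 0.619, 1.41 and 1.20 rescaled TPM in OTX2-overexpressing embryos, against 6.76, 11.7 and 12.3 in wild type (log2 difference −2.42, SE 0.277, adjusted p = 0.00149). Of 13 import genes none rose and 4 fell, with TOMM5 at −3.49.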

How the data were processed

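The authors deposited 4 tables of TPM per gene, each with 6 libraries and with genes of mean TPM below 1 removed, which was checked on the files. Per the submitters' processing notes, the build was Sscrofa11.1 and the tools named, without role or order, include STAR 2.7.3, featureCounts 2.0.0, StringTie 2.1.4 and DESeq2. Log2 fold changes and adjusted p-values computed by the authors stand in the same tables and served as an alternative. Here TPM was rescaled to nuclear genes (sum 1000000), genes with at least 1 rescaled TPM in at least 3 libraries were kept, log2(value + 1) was taken, and limma 3.58.1 (R 4.3.3, trended and robust) tested all genes of a table with Benjamini-Hochberg adjustment. All listed members passed the filter, and the fits were tested on simulated data. Direct contrasts between lines used 1 fit of 12 libraries. The samples in the fits were grouped by their titles. Per complex, the 2 smallest adjusted p in each direction were named, with the 3 highest and 3 lowest fold changes at a mean of at least 5 TPM, SDHA to SDHD and the isoform genes, and of other lists up to 3 genes. Members and lists were chosen with earlier results of these data known. Leaving a library out of sums, other scalings of sums and the complex counts without knockout library 1 were alternatives added after seeing the data. No sequence is printed, and promoter motifs were not run.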

Additional observations from a re-analysis of the deposited data

Results flagged for a closer look

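For the 11 genes given here, OTX2 overexpression changed the level one way in 4-cell embryos and the other way in pEPSCs, and the interaction test of that difference passed. The embryo effect minus the pEPSC effect, on the log2 scale, was −2.53 for ATP5E, −2.112 for ATP5J2 and 0.9975 for ATP5F1 in complex V. It was −1.569 for COX5B, −1.121 for COX6A1, −2.715 for COX7A2 and −1.288 for NDUFA4 in complex IV. In complex III it was −1.364 for UQCR10 and 1.318 for UQCRB. In complex I it was −3.909 for NDUFA2 and −3.055 for NDUFB11. In the authors' deposited table the pEPSC rises of COX6A1 (−0.005757, adjusted p = 0.943) and UQCR10 (0.1845, adjusted p = 0.0751) did not pass. The embryo calls of ATP5F1, COX6A1 and UQCR10 were each lost without certain single libraries, as given above. The embryo and pEPSC libraries differed in protocol and in mitochondrial share of TPM, and the part of either in these differences was not tested.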

How the results depend on the processing

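The counts of members that rose or fell stayed within 1.5 times of the reported ones under the other scalings, pseudocount, filters and the authors' deposited adjusted p, with these exceptions, whose cause was not tested. In the knockout 0 members fell under median-ratio scaling (limma; 0 at an unadjusted p under 0.05) and in the authors' deposited table. In the LEUTX line 27 rose in the authors' deposited table and 9 fell in the fit of 12 libraries. In embryos 7 rose on TPM as deposited and 2 under median-ratio scaling, and the embryo effect exceeded the pEPSC effect for 11 on TPM as deposited. The summed ratio of OTX2-overexpressing to wild-type pEPSCs was 1.224 on TPM as deposited and 1.069 under median-ratio scaling, that of the LEUTX line 0.9784 under median-ratio scaling, and that of the embryos 0.7802 and 0.6299. Median-ratio scaling also turned the LEUTX ratios of complex II (0.9623) and complex III (0.9907), and that of complex III under OTX2 in pEPSCs, whose groups overlap, was 0.9689. In the authors' deposited table the log2 fold changes of COX6A1 (−0.005757) and ATP5G2 (−0.2135) under OTX2 and of SDHB (−0.01946) under LEUTX had the other sign. Leaving out 1 library at a time gave 37 to 39 rises and 19 to 20 falls for OTX2 overexpression in pEPSCs, 18 to 33 and 0 to 12 for the knockout, 40 to 43 and 14 to 16 for LEUTX and 1 to 4 and 13 to 20 for embryos. The knockout had 18 rises and 0 falls without any 1 wild-type library and 12 falls without knockout library 1, and the embryos 1 rise without overexpressing library 2 or 3 and 2 rises without wild-type library 2 or 3. The direct contrasts ranged over 18 to 30 higher and 21 to 29 lower (OTX2 overexpression against knockout), 17 to 19 and 24 to 25 (LEUTX against OTX2 overexpression), 18 to 30 and 23 to 29 (LEUTX against knockout), where both counts of 30 were those without knockout library 1, and the embryo-pEPSC difference over 6 to 9 and 26 to 34. Correlations of deviations from the group mean were −0.185 to 0.071 for same-numbered libraries and −0.166 to 0.228 for the others. Deviations from a mean of 3 libraries constrain each other, so these values cannot decide whether the numbers pair the libraries. A replicate block gave 38 and 19 for OTX2 overexpression, 40 and 15 for LEUTX, and 2 and 18 for embryos. For the knockout, no paired analysis was possible because its columns are numbered 1, 3 and 4 and do not carry the title numbers. Depth is unknown, and 3 libraries a group limit the precision.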
